A study of Homo sapiens with 8 samples.

Results

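Proteoglycans are proteins that carry long sulfated sugar chains, and 10 genes for their core proteins were followed here through cultured thyroid cells given thyroid hormone or vehicle. They were HSPG2 (perlecan), VCAN (versican), AGRN (agrin), BGN (biglycan), DCN (decorin), SDC1, SDC2 and SDC4 (syndecans) and GPC1 and GPC4 (glypicans). Members were taken by symbol, and all 10 were found among the 56832 gene rows of the count tables. They were chosen with results of these libraries known, and are treated as selected on their measured levels and fold changes in every comparison. The values of the members are therefore given as a description, and no p-value is printed for them. A filter on low counts kept 9 of the 10 among the 14611 genes tested, and BGN, with 25 counts over all libraries, was left out.

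RNA came from Nthy-ORI, an immortalised epithelial line from normal human thyroid, in a study of the thyroid hormone receptor beta and chromatin remodelers. Total RNA depleted of ribosomal RNA was sequenced. All cultures first spent 24 h in hormone-starved medium, with charcoal-stripped serum and no phenol red. The 4 groups, each of 2 libraries, then received either 10 nM T3, the active hormone, or NaOH as its vehicle, and were harvested after 6 h or 24 h of either. The controls were thus starved of hormone too, and a single cell line stands for the tissue.

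A proteoglycan is made in the Golgi apparatus, where enzymes attach a short sugar linker to serines of the core protein and extend it into heparan sulfate, chondroitin sulfate or dermatan sulfate. Perlecan and agrin carry heparan sulfate in basement membranes, the sheets on which epithelia such as the thyroid follicle rest. Versican is a large chondroitin sulfate proteoglycan that binds hyaluronan in loose matrix, and biglycan and decorin are small leucine-rich proteoglycans that bind collagen. Syndecans span the plasma membrane and glypicans are tied to it by a lipid anchor, and both act as coreceptors for growth factors.

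Libraries held between 2517983 and 8201606 reads in genes, so 3 counts, taken as the floor of detection, corresponded to between 0.366 and 1.19 CPM (counts of a gene in 1e6 gene reads). Nothing in the labels says that the replicates came from separate cultures, so the spread between them may be technical. It was unequal, by a chi-square per gene against counting noise over genes with at least 20 counts in the pair. This was 4.1 and 2.7 in vehicle and T3 at 6 h, and 27.8 and 7.2 in the libraries labelled vehicle and T3 at 24 h. KLF9 and HR, established targets of T3, checked the labels. KLF9 had 3 and 2 counts in vehicle and 37 and 70 in T3 at 6 h, but 92 and 210 in vehicle and 18 and 29 in T3 at 24 h. HR also rose with T3 at 6 h, with 227 and 143 counts against 320 and 506, and fell at 24 h, with 19 and 26 against 2 and 1. Because both targets went against the labels at 24 h, vehicle and T3 name the 24 h libraries by their labels only. Had these labels been exchanged, every hormone difference at 24 h below would have the opposite sign. Each comparison of the times, with vehicle or with T3, would then pair unlike treatments, and the differences of responses would change too.

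The libraries of the 2 times also stood far apart. Between the vehicle groups 64.5% of the tested genes were called, and the time cannot be told apart from any other difference between these cultures or their preparation. The share of reads that fell in genes moved with both time and hormone, at 12.9% and 15.4% in vehicle and 16.5% and 17.1% in T3 at 6 h, and at 19.5% and 21.7% in the libraries labelled vehicle and 22.8% and 24.4% in those labelled T3 at 24 h. Reads without a unique place ran from 61.2% to 67.4% at 6 h and from 47.6% to 57.1% at 24 h. Of the thyroid markers, PAX8 had 12 to 33 counts at 6 h and 504 to 1035 at 24 h, while TG and TSHR were at 0 in every 6 h library and did not exceed 5 counts at 24 h. Thyroglobulin, the precursor of the hormone, and the TSH receptor were therefore absent or nearly so. FOXE1 had 13.2 and 10.4 CPM in vehicle and T3 at 6 h, and 21.9 and 20.8 CPM in the libraries labelled vehicle and T3 at 24 h. SLC5A5, NKX2-1 and DUOX2 had at most 5 counts in any library. The 6 epithelial markers summed to 1060 to 1230 CPM at 6 h and 403 to 573 CPM at 24 h, with KRT7, KRT8 and KRT18 present in all libraries and KRT19 at 0 at 6 h. EPCAM had 15 to 58 counts per library at 6 h and 6 to 29 at 24 h, and CDH1 had at most 5 in any library. The summed level of 6 fibroblast markers was 15.6 to 26.5 CPM at 6 h and 21.4 to 27.2 CPM at 24 h, most of it PDGFRB. COL1A2 was at 0 at 6 h and had 8 to 15 counts per library at 24 h. FAP, another fibroblast marker, had 5 to 11 counts in each 6 h library and 0 in all 4 of 24 h. The 6 endothelial markers summed to less than 1 CPM in every library, with CDH5 and TIE1 at 0 throughout. The 6 immune markers summed to 49.7 to 57.0 CPM at 6 h, nearly all of it CSF1R, and to 0.309 to 1.04 CPM at 24 h, with CD3E at 0 throughout. The part of these shares and markers in the results below was not tested.

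The promoters of 3 members are shown because HSPG2 had the largest called hormone differences among the members, VCAN responses of opposite sign by the labels, and SDC4 the highest level per length. Each sequence is the 250 bases before the gene's start in RefSeq on GRCh38.p14, read 5′ to 3′ on the strand of the gene, with capitals marking the GC box GGGCGG or its reverse complement CCGCCC. HSPG2 lies on the minus strand (chr1:21937311-21937560), VCAN on the plus strand (chr5:83471494-83471743) and SDC4 on the minus strand (chr20:45348425-45348674). In another annotation, GENCODE 29, VCAN runs from 83471465 to 83582303, so its whole window lies inside the gene there. The GC share and GC box count of VCAN below thus describe bases upstream of its RefSeq start only. The windows of HSPG2 and SDC4 lie upstream of these genes in both annotations.
HSPG2: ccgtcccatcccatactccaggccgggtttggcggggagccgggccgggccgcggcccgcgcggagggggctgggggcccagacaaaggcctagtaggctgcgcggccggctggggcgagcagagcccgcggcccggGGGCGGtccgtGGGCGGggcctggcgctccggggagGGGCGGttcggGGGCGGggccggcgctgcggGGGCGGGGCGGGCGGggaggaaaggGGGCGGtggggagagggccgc
VCAN: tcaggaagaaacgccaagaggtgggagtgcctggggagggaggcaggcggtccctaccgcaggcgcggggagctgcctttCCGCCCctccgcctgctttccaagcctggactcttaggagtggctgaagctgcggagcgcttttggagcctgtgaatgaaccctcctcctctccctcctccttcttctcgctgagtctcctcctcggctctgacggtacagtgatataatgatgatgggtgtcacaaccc
SDC4: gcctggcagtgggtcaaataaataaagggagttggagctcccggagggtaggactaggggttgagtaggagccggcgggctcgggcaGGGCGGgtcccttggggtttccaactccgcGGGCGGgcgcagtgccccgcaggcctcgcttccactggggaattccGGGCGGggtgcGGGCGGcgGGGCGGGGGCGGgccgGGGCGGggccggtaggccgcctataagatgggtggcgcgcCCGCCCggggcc
GC made up 82.8% of the HSPG2 promoter, 60.8% of that of VCAN and 73.6% of that of SDC4, against a median of 58% over 35116 promoters of this length. The GC box, counted on both strands with overlaps, occurred 8 times for HSPG2, 1 time for VCAN and 8 times for SDC4. At least 1 GC box was found in all 7 members with an entry and in 42.6% of all promoters. AGGTCA, the half-site at which thyroid hormone receptors are known to bind, was found on neither strand in any of the 7, and in 12.1% of all promoters. A match in these windows is a description of letters and not of a bound site.

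**Figure D1:**
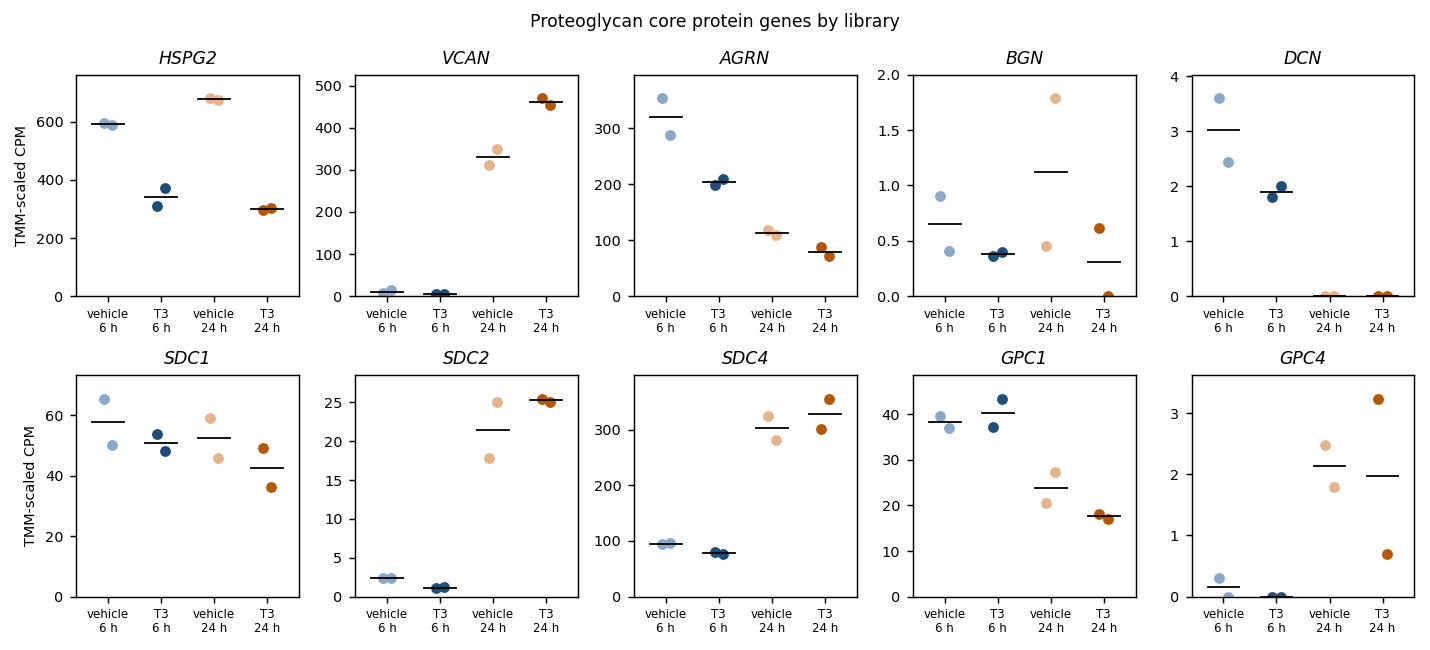
Levels of the 10 members in each library, as CPM scaled by the TMM factors of edgeR (linear axes from 0, each panel with its own range). Points are libraries and lines are means of 2. HSPG2 was lower in both T3 groups than in both vehicle groups, while VCAN, SDC2 and SDC4 were high at 24 h and AGRN and DCN at 6 h.

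Perlecan had the largest called hormone difference among the members. HSPG2 (chromosome 1, 21822245 to 21937297 in GENCODE 29 on GRCh38) stood at 596 and 588 CPM in vehicle at 6 h, 310.4 and 373 in T3 at 6 h, 680 and 672 in the libraries labelled vehicle at 24 h, and 295 and 302 in those labelled T3. By the labels, its 4 T3 libraries lay below its 4 vehicle libraries without overlap, which would not hold with the 24 h labels exchanged. HSPG2 fell 1.73-fold with T3 at 6 h (log2 fold change −0.79 ± 0.12 SE) and was 2.26-fold lower in the libraries labelled T3 at 24 h (−1.18 ± 0.12). The difference between these responses, −0.39 ± 0.17, was not called. In bulk RNA, fewer cells making a transcript and less of it per cell cannot be told apart. The order of the labels gave the same direction at both times for HSPG2, whereas KLF9 and HR turned.

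A gene is called here when its adjusted p was under 0.05 in edgeR's quasi-likelihood test over all genes tested, and by that rule T3 called 2 of the 9 tested members at 6 h, both lower, where 7.64% of all tested genes were called, 3.78% higher and 3.86% lower. In the libraries of 24 h, 3 of 9 members were called, 1 higher and 2 lower, where the share over all genes was 13.3%, with 5.58% higher and 7.76% lower. These shares rest on a spread estimated over all 4 groups, at 553 genes higher and 564 lower at 6 h and 816 and 1134 at 24 h. A fit of only the libraries compared called 1714 higher and 1387 lower at 6 h, and 363 and 437 at 24 h. The median log2 fold change of the 9 members was −0.67 at 6 h and −0.15 at 24 h, beside −0.02 and −0.01 over all tested genes. Since the members were chosen with these comparisons known, nothing is read from their counts or medians.

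Agrin, the heparan sulfate proteoglycan best known for clustering receptors at the nerve-muscle synapse, went the same way as perlecan but by less. AGRN (chromosome 1, 1020123 to 1056118) had 354 and 288 CPM in vehicle at 6 h and 198 and 209 in T3. The libraries labelled vehicle at 24 h had 118 and 109.7 CPM, and those labelled T3 87.2 and 71.2. T3 and vehicle libraries did not overlap at either time, and every 24 h library lay below every 6 h library. The log2 fold change of AGRN was −0.66 ± 0.14 with T3 at 6 h and −0.52 ± 0.14 in the libraries labelled T3 at 24 h.

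GC content moved with both hormone comparisons. Transcripts of HSPG2 and AGRN are GC-rich, at 63.5% and 66.4%, both in the highest of 5 equal bins of the annotated genes. Across the bins, from low to high GC, the median log2 fold change with T3 went from 0.31 to −0.31 at 6 h and from 0.32 to −0.53 at 24 h. With the trend on GC content and length removed from each library, the value of HSPG2 became −0.40 ± 0.10 at 6 h and −0.59 ± 0.10 at 24 h. That of AGRN became −0.24 ± 0.10 and 0.18 ± 0.11, the second with the opposite sign, and neither was called. The corrected fit called 3.51% of genes at 6 h and 1.04% at 24 h.

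Single libraries bore on these calls at 6 h. Without replicate 1 of T3 at 6 h, HSPG2 missed the threshold at a log2 fold change of −0.67, and at 24 h it was called whichever library was left out. The 6 h call of AGRN was lost without replicate 1 of vehicle (−0.50), replicate 1 of T3 (−0.62) or replicate 2 of T3 (−0.70), and its 24 h call without replicate 2 of T3 (−0.38) or in a fit of only the libraries compared (−0.53). HSPG2 shares 11.7% of its exon bases with LDLRAD2 on the other strand, and since the strand setting of the counting is not given, reads there cannot be assigned to either gene. LDLRAD2 itself had 0 to 16 counts per library.

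**Figure D2:**
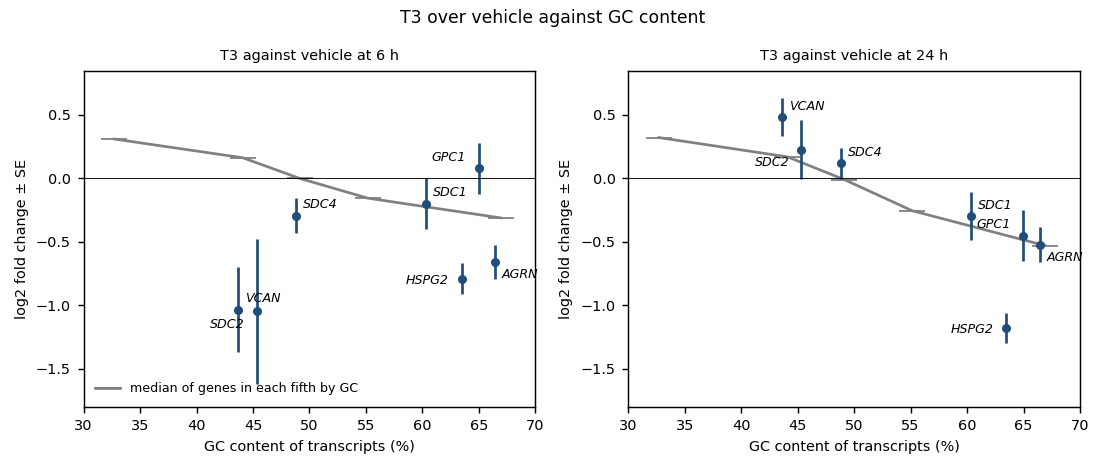
Log2 fold change of T3 over vehicle (± SE) against transcript GC content for 7 members with enough counts, at 6 h and 24 h. The grey line joins the medians of 5 equal GC bins, which ran from 0.31 to −0.31 and from 0.32 to −0.53, and HSPG2 lay below it at both times.

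Versican was far higher at 24 h than at 6 h. VCAN (chromosome 5, 83471465 to 83582303) had 6.60 and 15.1 CPM in vehicle at 6 h and 5.41 and 4.81 in T3, from 15 to 37 counts per library. The libraries labelled vehicle at 24 h had 311 and 349 CPM and those labelled T3 had 470 and 454. VCAN was thus a low transcript in all 4 libraries of 6 h and among the higher members in all 4 of 24 h. The log2 fold change from 6 h to 24 h was 4.99 ± 0.22 between the vehicle groups and 6.51 ± 0.23 between the T3 groups.

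By the labels, the hormone difference of VCAN had opposite signs at the 2 times. With the 24 h labels exchanged both would be below 0 and the difference between them smaller. Its log2 fold change with T3 was −1.04 ± 0.33 at 6 h, which was not called, and 0.48 ± 0.15 at 24 h, where the libraries labelled T3 were called 1.40-fold higher. The difference between the responses was 1.52 ± 0.36 and was the single one called among the 9 members, where 1.84% of all genes were, 0.849% with a higher response at 24 h. Without replicate 2 of vehicle at 6 h, the library at 15.1 CPM, the response at 6 h became −0.37 and the difference 0.84, which was not called. Without replicate 1 of vehicle at 6 h the 6 h response was −1.58 and was called. The difference also missed the threshold without replicate 1 (1.59) or 2 (1.42) of T3 at 6 h and without replicate 1 (1.5) or 2 (1.55) of T3 at 24 h.

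The 24 h call of VCAN was lost without replicate 1 of vehicle (0.40), replicate 1 of T3 (0.46) or replicate 2 of T3 (0.51) at 24 h, and with the GC correction (0.28 ± 0.12). The GC correction left the difference at 1.44 ± 0.32 and called, where 2.65% of the genes in that fit were, and the 6 h response at −1.16 ± 0.30, which was then called too. The 6 h response was also called by DESeq2 (−1.04), without the filter on low counts (−0.97), with only the libraries compared (−1.02) and with a replicate block within time (−1.12). A further value moved with the 6 h response of VCAN. Of genes outside the members, 33 with at least 50 CPM at 24 h were at least 20-fold higher there than at 6 h, a set chosen after the data had been seen. At 6 h their median level was 4.12% and 6.29% of that at 24 h in the vehicle libraries but 1.84% and 1.52% in the T3 libraries. VCAN stood at 1.67% and 3.81% against 1.37% and 1.22%, and the part of this shared pattern in its response was not tested.

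The small leucine-rich proteoglycans were scarce. DCN (chromosome 12, 91140484 to 91183123), which binds collagen fibrils and is abundant in fibroblasts, had 12 and 6 counts in vehicle at 6 h, 5 and 10 in T3, and 0 in all 4 libraries of 24 h. It was therefore detected at 6 h alone, at 3.02 ± 0.82 CPM in vehicle and 1.90 ± 0.14 CPM in T3 (SD, n = 2). Set against 3 counts over each 24 h group, DCN was at least 11.6-fold lower at 24 h with vehicle and at least 9.76-fold lower with T3. The fibroblast marker FAP, given above, had the same order of levels. COL1A2 went the other way, at 0 at 6 h and 8 to 15 counts per library at 24 h. PDGFRB had 22.3 and 13.8 CPM in vehicle and T3 at 6 h. In the libraries labelled vehicle and T3 at 24 h it had 24.7 and 20.8 CPM. COL3A1, PDGFRA and THY1 had at most 2 counts in any library. BGN (chromosome X, 153494939 to 153509554) had 3, 1, 1 and 2 counts at 6 h, 2 and 12 in the libraries labelled vehicle at 24 h, and 4 and 0 in those labelled T3. No group of BGN stood clear of the others.

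Among the syndecans, SDC4, a coreceptor found at focal adhesions, rose with time. SDC4 (chromosome 20, 45325288 to 45348424) had 94.9 and 95.8 CPM in vehicle at 6 h, 79.3 and 76.3 in T3, 325 and 282 in the libraries labelled vehicle at 24 h, and 302 and 356 in those labelled T3. It was 3.18-fold higher at 24 h with vehicle (log2 fold change 1.67 ± 0.13) and 4.24-fold higher with T3 (2.08 ± 0.13). The T3 libraries of 6 h lay below those of vehicle without overlap, at −0.29 ± 0.14, which was not called, and at 24 h the groups overlapped (0.12 ± 0.12).

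SDC2, the syndecan typical of mesenchymal cells, had the pattern of VCAN at a lower level. SDC2 (chromosome 8, 96493351 to 96611780) had 2.40 and 2.44 CPM in vehicle at 6 h, 1.08 and 1.20 in T3, 17.8 and 25.0 in the libraries labelled vehicle at 24 h, and 25.5 and 25.0 in those labelled T3. With 3 to 8 counts per library at 6 h, its log2 fold change of −1.05 ± 0.57 with T3 was not called, nor was 0.23 ± 0.23 at 24 h. Its rise with time was called in both arms, at 3.14 ± 0.36 with vehicle and 4.42 ± 0.38 with T3.

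SDC1, the syndecan typical of epithelia, was called in none of the 4 comparisons of groups as counted. SDC1 (chromosome 2, 20200797 to 20225433) had 65.5 and 50.1 CPM in vehicle at 6 h, 53.7 and 48.1 in T3, 59.2 and 45.7 in the libraries labelled vehicle at 24 h, and 49.0 and 36.3 in those labelled T3. The groups overlapped in every comparison, and log2 fold changes lay between −0.30 and −0.16 with none called. With the GC correction, however, SDC1 was called higher at 24 h, by 0.70 ± 0.18 with vehicle and 0.84 ± 0.18 with T3.

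The glypican GPC1, a heparan sulfate coreceptor, fell with time as counted, a direction that the GC correction turned. GPC1 (chromosome 2, 240435671 to 240468078) had 39.6 and 37.1 CPM in vehicle at 6 h, 37.1 and 43.5 in T3, 20.5 and 27.3 in the libraries labelled vehicle at 24 h, and 18.2 and 17.1 in those labelled T3. The groups overlapped at 6 h (0.08 ± 0.20), and at 24 h those labelled T3 were lower by −0.45 ± 0.20, which was not called. From 6 h to 24 h GPC1 changed by −0.67 ± 0.20 with vehicle and −1.20 ± 0.20 with T3. The vehicle call was lost without replicate 1 of vehicle at 6 h (−0.62) or at 24 h (−0.50), and the corrected values were 0.54 ± 0.19 and 0.30 ± 0.19.

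GPC4 (chromosome X, 133300103 to 133415490), a second glypican, was near the floor. It had 1 count in the 4 libraries of 6 h together, against 11 and 12 in the libraries labelled vehicle at 24 h and 21 and 6 in those labelled T3. The ratio of its vehicle levels, 24 h over 6 h, was 11.9 with a 95% counting interval of 1.94 to 491, and this call was lost without any 1 of the 4 libraries (log2 fold changes 2.7 to 6.47). With T3 it was at least 4.61-fold higher at 24 h, and that call was lost without replicate 2 of T3 at 6 h (6.27).

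Of the 9 tested members, 7 were called between the times with vehicle, 4 higher and 3 lower, and 7 with T3, again 4 higher and 3 lower. Over all genes 64.5% were called with vehicle, 31.9% higher and 32.6% lower, and 70.4% with T3, 35.1% higher and 35.2% lower, so the members' share was not far from the background. By the labels, VCAN, SDC2, SDC4 and GPC4 were higher and AGRN, GPC1 and DCN lower at 24 h in both arms. HSPG2 was called in neither (0.19 ± 0.12 and −0.20 ± 0.12). With the 24 h labels exchanged, mean HSPG2 would go from 592 to 299 CPM with vehicle and from 342 to 676 CPM with T3. DCN passed the filter through vehicle at 6 h alone, so it had to be lower in vehicle at 24 h and in T3 at 6 h. GPC4 passed through 2 libraries, both of 24 h, so it had to differ between the times. GC moved with time more than with hormone, since the bin medians ran from 0.75 down to −0.999 with vehicle and from 0.75 down to −1.21 with T3. After the correction 6 members were called higher and 1 lower in each arm, DCN being the lower one, where 60.4% and 67.2% of the genes in that fit were called. HSPG2 was then higher by 1.00 ± 0.10 and 0.81 ± 0.10, and AGRN, at −0.25 ± 0.10 and 0.16 ± 0.11, was not called.

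**Figure D3:**
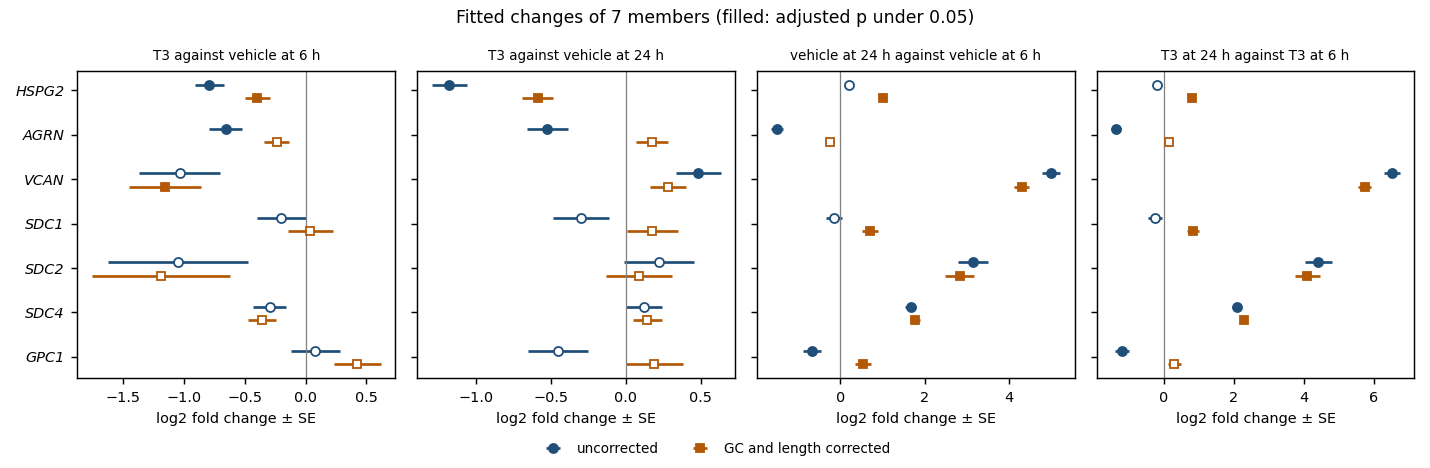
Log2 fold change ± SE of 7 members in 4 comparisons, as counted (circles) and with the GC and length trend removed (squares), filled where called. HSPG2 stays below 0 in both hormone comparisons, and VCAN, SDC2 and SDC4 stay above 0 in both time comparisons, while AGRN, SDC1 and GPC1 shift towards higher values with the correction.

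Levels of different genes were compared per kilobase of exon, over the union of all annotated isoforms, which understates a gene whose short isoforms are used. SDC4 was the highest member in every group, at 36.5 ± 0.245 CPM per kilobase in vehicle at 6 h, 29.8 ± 0.809 in T3 at 6 h, 116 ± 11.4 in the libraries labelled vehicle at 24 h and 126 ± 14.7 in those labelled T3 (SD, n = 2). It made up 29.7% of the summed member level in vehicle at 6 h and 62.5% in the libraries labelled T3 at 24 h. At 6 h HSPG2 and AGRN came next and their libraries overlapped, at 32.7 ± 0.334 and 29.8 ± 4.31 CPM per kilobase in vehicle and 18.9 ± 2.44 and 18.9 ± 0.725 in T3. SDC1 and GPC1 followed, and the other 5 members stood at or under 0.731 CPM per kilobase.

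At 24 h VCAN and HSPG2 changed places. In the libraries labelled vehicle HSPG2 had 37.4 ± 0.294 CPM per kilobase and VCAN 22.3 ± 1.79. In those labelled T3 VCAN had 31.1 ± 0.769 and HSPG2 16.5 ± 0.275. In neither group did the libraries of these genes overlap. SDC1, AGRN, SDC2 and GPC1 followed in that order in both groups, and SDC2 and GPC1 overlapped in the libraries labelled vehicle.

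**Figure D4:**
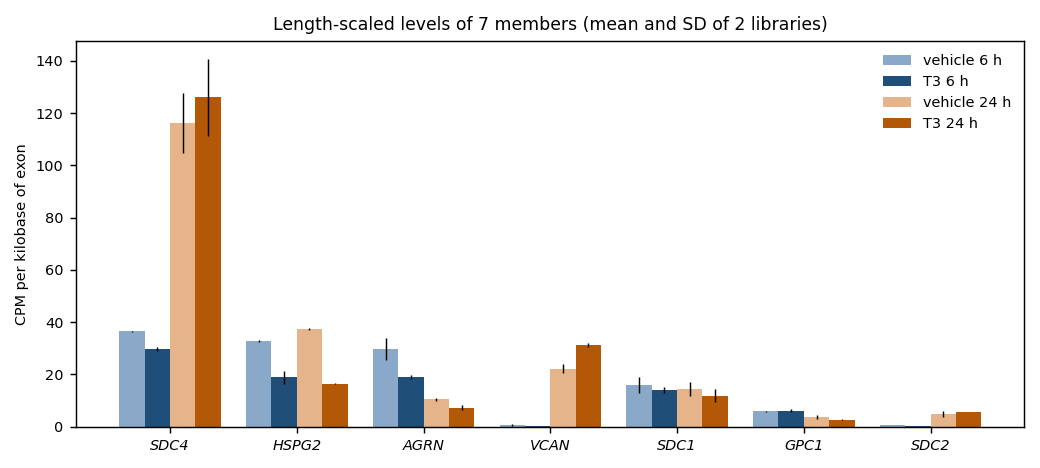
Mean level of 7 members in CPM per kilobase of exon, with SD of 2 libraries as error bars, in the 4 groups. SDC4 was highest in every group, at 36.5, 29.8, 116 and 126, and VCAN passed HSPG2 only in the libraries labelled T3 at 24 h.

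Over the 8 libraries, VCAN moved with SDC2 and SDC4 (Pearson r of log2 CPM 0.99 for each), and HSPG2 with neither VCAN (0.01) nor, closely, AGRN (0.36). These values describe 8 points that share 2 times and 2 treatments, and the first is carried by the gap between the times. The 5 genes most like HSPG2 among 10124 genes of at least 10 CPM were VPS52 (0.98), PML (0.97), SLC26A11 (0.95), OSBPL7 (0.95) and BAD (0.95), and 3 of all these genes reached 0.95. PML, the scaffold of nuclear bodies, had 44.1 and 30.2 CPM in vehicle and T3 at 6 h and 46.2 and 31.1 CPM at 24 h. Those most like VCAN were ZC3H6, SLF2, TIAM1, INHBA and CEP57, with r from 0.998 to 0.999, but 1262 genes reached 0.95 with it. INHBA, which encodes a chain of activin, had 4.82 and 2.80 CPM at 6 h and 153 and 230.2 CPM at 24 h.

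The surrounding pathway was taken as 128 genes in 9 lists, covering other core proteins, the linker, heparan sulfate and chondroitin or dermatan sulfate chains, sugar and sulfate donors, hyaluronan, cleavage, lysosomal breakdown and receptors. Of these, 85 were tested. The lists were chosen with earlier results of these data known, so their counts and p-values are given as a description. With T3 at 6 h, 3 were called higher and 7 lower, which is 11.8% of those tested against 7.64% of all genes, and their median log2 fold change was −0.11. At 24 h 5 were higher and 6 lower, or 12.9% against 13.3%, with a median of 0.03. Neither the linker, heparan sulfate, hyaluronan nor lysosomal list had a called gene at 6 h, although 0 of 6, 2 of 9, 3 of 8 and 2 of 12 had an unadjusted p under 0.05 there, against 23.2% of all genes.

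At 6 h the list with the most called genes was that of chondroitin and dermatan sulfate synthesis, where 1 of 12 rose and 3 fell. DSEL, an epimerase that turns chondroitin into dermatan sulfate, rose from 138 ± 4.26 to 297 ± 12.1 CPM (log2 fold change 1.10 ± 0.15, adjusted p = 0.000374). Its relative DSE fell from 12.5 ± 3.20 to 5.17 ± 1.36 CPM (−1.35 ± 0.31, adjusted p = 0.0157). CHST15, which adds a second sulfate to chondroitin, fell from 12.4 ± 3.16 to 4.13 ± 1.25 CPM (−1.49 ± 0.30, adjusted p = 0.00684). Elsewhere the core proteins CSPG4 (−0.81 ± 0.19) and BCAN (−3.22 ± 0.83) fell, as did NID1, a linker of laminin and perlecan (−1.75 ± 0.37), and the membrane protease MMP14 (−1.54 ± 0.28). BCAN passed the filter through vehicle at 6 h alone, with 26 and 11 counts there and 0 to 3 in the other libraries, so it had to be lower with T3. IMPAD1, a Golgi phosphatase that clears the by-product of sulfation, rose by 0.65 ± 0.15, and SDCBP, the syntenin that binds syndecan tails, rose by 0.49 ± 0.14.

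Of the 9 genes named at 6 h, DSEL alone kept its call whichever library was left out, and 5 of the 9 kept it with the GC correction, namely DSEL, CHST15, DSE, MMP14 and NID1. The last 4 are, like VCAN, transcripts with far higher levels at 24 h. Relative to T3 at 6 h, the vehicle level at 24 h was 23.4 times as high for CHST15, 8.32 for DSE, 21.8 for MMP14, 37.8 for NID1 and 64.6 for VCAN. It was 1.98 for HSPG2, 0.560 for AGRN, 0.280 for CSPG4 and 0.113 for BCAN. All these genes were lower in T3 at 6 h, so dividing by that group raises every ratio. Within vehicle, mean CPM at 6 h and 24 h was 12.4 and 96.7 for CHST15, 12.5 and 43 for DSE and 16.4 and 129 for MMP14. It was 10.3 and 108 for NID1, 10.8 and 330 for VCAN and 592 and 676 for HSPG2. For AGRN it was 321 and 114, for CSPG4 79.7 and 12.7 and for BCAN 6.15 and 0.0745. The part of this pattern in the 6 h responses was not tested.

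At 24 h the called genes were spread over 6 of the lists. HS2ST1, which adds the 2-O-sulfate of heparan sulfate, was higher in the libraries labelled T3, at 122 ± 9.26 against 65.2 ± 11.2 CPM (0.91 ± 0.16, adjusted p = 0.00188). DSEL (0.55 ± 0.17) and IMPAD1 (0.51 ± 0.14) were higher as at 6 h. The versican-cleaving protease ADAMTS1 (0.64 ± 0.16) and the sheddase ADAM10 (0.45 ± 0.14) were higher, and the proteases BMP1 (−0.71 ± 0.20) and MMP14 (−0.51 ± 0.15) lower. B4GALT7 of the linker (−0.87 ± 0.22), the sulfate-donor transporter SLC35B2 (−0.87 ± 0.23) and the lysosomal enzymes IDUA (−1.41 ± 0.36) and GALNS (−1.05 ± 0.30) were also lower. HS2ST1 alone of these 11 kept its call whichever library was left out, and with the GC correction none of the 84 pathway genes in that fit was called. Over all genes, that corrected fit called 1.04% at 24 h. At an unadjusted p under 0.05, 36 of the 85 (42.4%) differed without the correction, against 28.8% of all genes.

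The responses of CHST15 and DSE differed between the times, by 1.62 ± 0.33 (adjusted p = 0.0178) and 1.61 ± 0.37 (adjusted p = 0.0312), with 24 h responses of 0.13 and 0.26. Together with VCAN these were the called differences among members and pathway genes. By the labels, the fitted response of all 3 was below 0 at 6 h and above 0 at 24 h, and with the 24 h labels exchanged it would be below 0 at both. Each of the 3 differences would then be smaller.

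**Figure D5:**
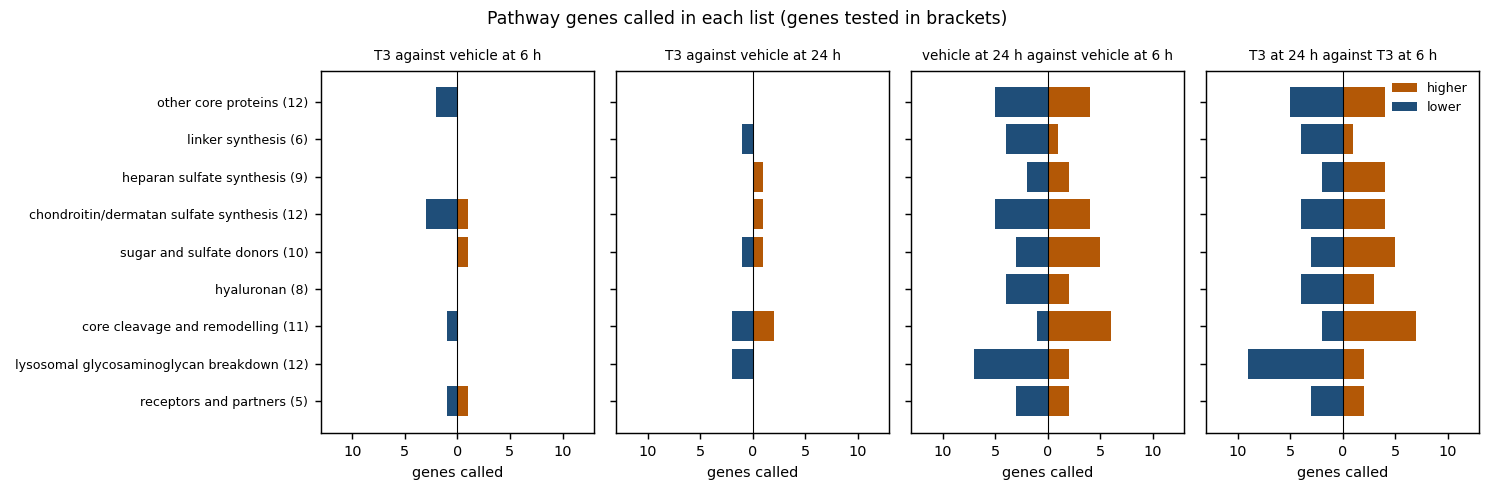
Number of pathway genes called higher (to the right) and lower (to the left) in each of 9 lists and 4 comparisons, with the genes tested in brackets. Of 85 genes, 10 were called with T3 at 6 h and 11 at 24 h, and 62 and 68 between the times. These are 11.8%, 12.9%, 72.9% and 80%, where 7.64%, 13.3%, 64.5% and 70.4% of all tested genes were called.

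Between the times, 28 pathway genes were higher and 34 lower at 24 h with vehicle, 72.9% of those tested against 64.5% of all genes, and 32 higher and 36 lower with T3, 80% against 70.4%. With the GC correction these became 27 higher and 25 lower of 84 with vehicle and 36 higher and 25 lower with T3. Over all genes in that fit 60.4% and 67.2% were called. Core cleavage genes were mostly higher (6 higher and 1 lower of 11 with vehicle, 7 and 2 with T3), with medians of 0.62 and 1.48. Lysosomal breakdown genes were mostly lower (2 higher and 7 lower of 12, then 2 and 9), with medians of −0.58 and −0.72, beside 0.03 and 0.02 over all genes. The counts and medians of these 2 lists are without the GC correction, and the part of GC content in them was not tested. ADAMTS5, a protease that cuts versican and aggrecan, rose from 2.43 ± 1.75 to 23.5 ± 3.72 CPM with vehicle (3.35 ± 0.38), and MMP14 from 5.91 ± 1.84 to 90.8 ± 5.24 CPM with T3 (4.01 ± 0.23).

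Among other core proteins GPC6, a glypican, was higher at 24 h by 3.27 ± 0.36 with vehicle and 5.56 ± 0.42 with T3. SRGN, the granule proteoglycan serglycin of blood cells, had 32.9 ± 0.704 CPM in vehicle at 6 h and no counts in the libraries labelled vehicle at 24 h, where it was at least 122-fold lower. With T3 it fell by 5.40 on the log2 scale, with 12 counts in 1 of the libraries labelled T3 at 24 h and 0 in the other. The immune marker CSF1R, given above, was likewise high at 6 h, while CD3E was at 0 in every library and PTPRC had at most 6 counts. CSGALNACT1, which starts chondroitin chains, fell from 46.8 ± 4.67 to 1.57 ± 0.943 CPM with vehicle, while CHST15 rose from 12.4 ± 3.16 to 96.7 ± 2.17 CPM. LRP4, the agrin receptor, fell by 1.96 ± 0.19 with vehicle and 2.36 ± 0.19 with T3, and NID2, like NID1 a nidogen, was 84.5 times its 6 h level with vehicle (95% counting interval 15.0 to 3357) and 48.2 times with T3 (13.2 to 400.5).

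The enzymes and donors behind the chains were divided. SLC26A2, a sulfate importer, was higher at 24 h with vehicle (1.62 ± 0.15) and UGDH, which makes the glucuronic acid donor, lower (−1.27 ± 0.14). HS2ST1 was higher in both arms (1.10 ± 0.18 and 1.7 ± 0.17), and the linker phosphatase PXYLP1 too (2.18 ± 0.42 and 1.26 ± 0.36), but the GC correction ended the call of HS2ST1 with vehicle (0.27) and of PXYLP1 with T3 (0.81). The linker enzymes B3GALT6 with vehicle (−1.16 ± 0.22) and B3GAT3 with T3 (−1.60 ± 0.28) were lower, but turned to 0.20 and 0.14 with the GC correction. Of the lysosomal enzymes, IDS was higher (2.32 ± 0.26 and 2.48 ± 0.24) and NAGLU lower (−2.60 ± 0.27 and −2.17 ± 0.25), the second call being lost with the GC correction (−0.56). Of 8 tested hyaluronan genes, 2 were higher and 4 lower with vehicle and 3 higher and 4 lower with T3. The hyaluronan receptor HMMR was higher with vehicle (1.32 ± 0.15), and the hyaluronidase HYAL1, with 3 counts in the libraries labelled vehicle at 24 h, stood at 0.0536 of its 6 h level (95% counting interval 0.0105 to 0.173) and with T3 was at least 16.3-fold lower. HAPLN3, a link protein of hyaluronan, was higher with T3 (2.56 ± 0.81), a call lost without replicate 1 of T3 at 6 h (1.9). With T3, CHST15 was also higher at 24 h (4.61 ± 0.22), as was the sulfate-donor transporter SLC35B3 (1.51 ± 0.23), while CSGALNACT1 (−4.86 ± 0.29) and SLC35B2 (−1.59 ± 0.23) were lower. The protease ADAMTS9 was lower by −2.41 ± 0.84 with vehicle, a call lost without any 1 of the 4 libraries, and by −2.59 ± 0.77 with T3. HS3ST3A1, a sulfotransferase of heparan sulfate, was lower by −1.5 ± 0.55 and −1.58 ± 0.54, and the GC correction ended both calls (−0.52 and −0.32). SRGN, HYAL1 and ADAMTS9 passed the filter through the 6 h libraries alone and GPC6 and NID2 through the 24 h libraries alone, so these 5 had to differ. Of the 18 genes named in each time comparison, 14 with vehicle and 13 with T3 kept their calls both whichever library was left out and with the GC correction.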

How the data were processed

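Each library had 1 deposited table of whole, unnormalised counts per gene symbol, which the authors made with CASAVA 1.7, STAR 2.7, HTSeq and DESeq2 on hg38, per the submitters' processing notes. For the annotation and strand setting: not given in the sources used here. The 5 summary rows were left out.

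The test was that of edgeR 4.0.16 (R 4.3.3), with TMM scaling, filterByExpr by group and the robust quasi-likelihood test. The fit had 1 coefficient per group over all 8 libraries and 4 residual degrees of freedom. Benjamini-Hochberg adjustment ran over the 14611 genes kept, and the threshold was 0.05. Intervals and floors cover counting error only. GENCODE 29, matched for 86.1% of tested genes, gave positions, lengths and GC content. Lowess curves of span 0.3 gave the GC and length correction. RLE scaling, DESeq2 1.42.0, no filter, only the libraries compared, replicate blocks and leaving out each library were also tried. The script was tested on simulated data.

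The members and lists were chosen with earlier results of these data known. Pathway genes were named by the largest called changes per list (for hormone up to 2 in each direction, for time 1), among genes of at least 1 CPM whose groups did not overlap. All 128 pathway symbols matched, 2 by an older symbol. One thyroid marker is not reported here.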

Additional observations from a re-analysis of the deposited data

Results flagged for a closer look

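The hormone response differed between the times, by the test of the difference itself, for 2 pathway genes. For CHST15 the log2 response was −1.49 and 0.13, a difference of 1.62 ± 0.33, and for DSE −1.35 and 0.26, a difference of 1.61 ± 0.37. The same fit gave VCAN −1.04 at 6 h and 0.48 at 24 h, a difference of 1.52 ± 0.36. All 3 values are a description, because VCAN and the pathway lists were chosen with results of these data known. At 6 h CHST15 rested on 9 to 36 counts per library, DSE on 17 to 49 and VCAN on 15 to 37. Leaving out single libraries of 6 h moved the 6 h response of CHST15 between −1.90 and −1.21 and that of DSE between −1.58 and −1.04. The difference of VCAN fell to 0.84 without replicate 2 of vehicle at 6 h. The libraries of 24 h are those in which KLF9 and HR went against the labels. With those labels exchanged, all 3 genes would have responses below 0 at both times and smaller differences between them.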

How the results depend on the processing

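With 2 libraries a group and a shared estimate of the spread, single libraries decide many calls. A lone library was assumed to vary like the other groups. Leaving out each library in turn gave 0 to 2 members called with T3 at 6 h, 1 to 3 at 24 h, 5 to 6 between the times with vehicle, 6 to 7 with T3 and 0 to 1 for the difference of responses. For pathway genes it gave 2 to 4, 7 to 10, 51 to 57, 58 to 71 and 0 to 5.

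With only the libraries compared, pathway calls were 20 at 6 h and 2 at 24 h, against 10 and 11. Over all genes, that fit called 1714 higher and 1387 lower at 6 h, against 553 and 564. At 24 h it called 363 and 437, against 816 and 1134. Without the filter on low counts 4 pathway genes differed in response, against 2. Over all genes these were 199 higher and 475 lower of 30107, against 124 and 145 of 14611. The GC and length correction, with or without a replicate block, left 1 member and 0 pathway genes called at 24 h. Over all 12577 genes in that fit, 59 were called higher and 72 lower without the block, and 73 and 83 with it. The cause was not tested. The correction turned the following log2 fold changes, given without and with the block. AGRN was 0.18 and 0.17 with T3 at 24 h and 0.16 and 0.16 between the T3 groups. HSPG2 was 0.81 and 0.81 between the T3 groups. SDC1 was 0.70 and 0.72 with vehicle and 0.84 and 0.82 with T3, and GPC1 0.54 and 0.52, then 0.30 and 0.31. B3GALT6 was 0.20 and 0.18 with vehicle, and B3GAT3 0.14 and 0.14 with T3. Without the block it also turned uncalled values that stayed uncalled, namely GPC1 with T3 at 24 h (0.19) and SDC1 with T3 at 6 h (0.04), at 24 h (0.18) and in the difference of responses (0.14).

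Over all genes, 49.5% of the calls at 6 h were higher, against 34.8% of 442 with the GC correction and 63.1% without the filter. For the difference of responses these shares were 46.1%, 59.2% and 29.5%, and at 24 h 41.9% became 32.8% without the filter.

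Deviations of same-numbered libraries correlated by −0.04 to 0.10, so no effect shared by replicate number was seen. With 2 libraries a group, this cannot show whether the samples were prepared in pairs. With a replicate block over all libraries 2 members were called at 6 h, 3 at 24 h, 7 and 7 between the times and 1 for the difference, and 12, 11, 61, 67 and 2 pathway genes. Over all 14611 genes the block gave 643 higher and 589 lower at 6 h and 889 and 1162 at 24 h. Between the times it gave 4639 and 4711 with vehicle and 5073 and 5134 with T3, and for the difference 143 and 177.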
